A study of Mus musculus with 30 samples.

Results

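The genes described here are 42 genes of the nuclear pore complex and of the receptors that carry cargo through it, read in the livers of mouse offspring whose fathers ate a normal or a low protein diet. They were chosen by symbol from their known roles, with earlier results of these data known. Of the 42 genes, 37 had a probe set in the annotation used, 1 each, among 22206 tested probe sets. No probe set was matched to Ipo7, Nup35, Tpr, Nup62 or Nup214. The 37 measured members comprised 6 genes of the Y complex, 4 of the inner ring, 1 transmembrane nucleoporin, 2 of the central channel, 3 of the cytoplasmic side, 2 of the nuclear basket, 3 of the Ran cycle, 5 importin alpha genes, 6 of the importin beta family and 5 exportins.

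The nuclear pore complex is a ring-shaped channel in the nuclear envelope, built from scaffold nucleoporins (the Y complex and the inner ring), a membrane anchor and nucleoporins rich in phenylalanine-glycine repeats that fill the channel. Importins take proteins into the nucleus and exportins take proteins and RNA out, and the small GTPase Ran sets the direction, since its GTP form is made in the nucleus and hydrolysed in the cytoplasm. In the liver, as in other tissues, transcription factors, splicing factors and tRNA depend on these carriers.

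Liver RNA of 30 C57/BL6J offspring aged 16 weeks was hybridised to Clariom S arrays, 1 array per animal. LL offspring came from sperm and seminal plasma of males fed the low protein diet (5 females and 4 males). For NL offspring the sperm came from males on the normal diet and the seminal plasma from males on low protein, and for LN offspring it was the reverse (3 females and 4 males each), while NN offspring had both from males on the normal diet (3 females and 4 males). Seminal plasma was supplied by mating with vasectomised males and sperm by artificial insemination, so the dams of all 4 groups went through both procedures. Litters are not in the labels and arrays of 1 group can come from siblings of opposite sex, so the p-values measure the spread between these arrays. Hepatocyte markers averaged between 12.6 and 12.8 log2 units on the 29 arrays other than NL replicate 6.

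Promoters are shown for the 3 members at an unadjusted p under 0.05 in NL against NN livers, of which none passed the adjustment in that comparison. Tnpo3 encodes an import receptor for serine and arginine-rich splicing factors, Kpnb1 encodes importin beta, the main carrier of the classical import route, and Nup153 encodes a nucleoporin of the nuclear basket. Each line gives the 250 bases before the RefSeq start in the GRCm38.p6 build, on the minus strand, at chr6:29609850-29610099 for Tnpo3, chr11:97187893-97188142 for Kpnb1 and chr13:46727850-46728099 for Nup153. Capitals mark matches on either strand to 3 motifs. The GC box was searched as GGGCGG. The ETS core was searched as CCGGAAG and the CCAAT box by the letters of its name. No match overlapped another.
Tnpo3: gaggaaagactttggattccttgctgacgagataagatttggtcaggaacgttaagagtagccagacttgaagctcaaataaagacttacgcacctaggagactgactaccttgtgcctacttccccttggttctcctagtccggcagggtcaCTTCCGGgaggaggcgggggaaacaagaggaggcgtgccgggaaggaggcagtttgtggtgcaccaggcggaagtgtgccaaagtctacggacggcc
Kpnb1: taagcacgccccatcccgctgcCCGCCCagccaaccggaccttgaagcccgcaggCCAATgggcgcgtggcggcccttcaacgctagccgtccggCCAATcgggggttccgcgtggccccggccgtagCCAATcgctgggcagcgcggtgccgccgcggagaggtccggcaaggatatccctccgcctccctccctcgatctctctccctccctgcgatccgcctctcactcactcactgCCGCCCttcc
Nup153: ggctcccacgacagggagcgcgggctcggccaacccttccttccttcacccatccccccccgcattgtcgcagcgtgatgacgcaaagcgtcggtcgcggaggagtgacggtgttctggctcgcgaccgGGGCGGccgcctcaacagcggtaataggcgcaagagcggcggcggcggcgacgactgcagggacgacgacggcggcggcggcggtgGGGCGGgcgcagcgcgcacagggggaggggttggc
The Tnpo3 stretch held 11 CpG dinucleotides and 1 ETS core, the Kpnb1 stretch 28 CpG dinucleotides, 2 GC boxes and 3 CCAAT boxes, and the Nup153 stretch 37 CpG dinucleotides and 2 GC boxes.

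A promoter was listed for 30 of the 37 measured members, with the first listed start taken for each gene. The median stretch of the members held 24 CpG dinucleotides and 65.2% G and C, against 6 and 52% over 27025 genes. A GC box stood in 23 of 30 members (76.7%), against 32.9% of all genes. The ETS core stood in 16.7% of members and 7.05% of all genes, the NRF1 core (GCATGCG) in 16.7% and 3.07%, and the CCAAT box in 40% and 34.5%. The E-box (CACGTG) was in 20% of members against 6.05% of all genes, the CRE (TGACGTCA) in 3.33% against 1.62%, and the TATA box (TATAAA) in 6.67% against 13%. These are matches of letters on both strands, with no test. All of these words except the CCAAT and TATA boxes contain a CpG, and the part of CpG content in the shares was not tested. The 27025 genes were not limited to those measured on the arrays.

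A single array stood apart from the others and bears on every NL value. On NL replicate 6, labelled male, the hybridisation controls averaged 8.59 log2 units, against 10.39 to 11.17 on the other 29 arrays, and the background probes averaged 5.13, against 3.87 to 4.25. Its highest correlation with another array was 0.783, whereas the lowest correlation among the other 29 was 0.962. Its Y-linked signals averaged 3.06, where the other arrays labelled male lay between 6.40 and 7.36. LL replicate 1, labelled female, averaged 5.22 on the same genes, where the other arrays labelled female lay between 2.38 and 3.00. NN replicate 5 had exocrine pancreas markers at 8.70, against 4.83 to 5.22 on the other 28 arrays without NL replicate 6.

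The pore and transport genes were much lower on NL replicate 6 than in NN livers. The 37 members averaged 5.69 log2 units on that array, and between 6.97 and 7.48 on the other 29. Of the 37, 36 lay below the NN mean, with a median difference of -1.71, and 33 lay below every NN array. Over the 8196 probe sets of like mean signal (5.59 to 8.43, the 10th to the 90th percentile of the members) the median difference was -0.50 and 61.3% were below the NN mean, and over all probe sets it was 0.37 with 40.3% below. These probe sets were taken by range alone, here and below, and most were dimmer than the median member, at 7.54. The SD over all probe sets was 1.65 on NL replicate 6 and between 2.15 and 2.30 on the other 29 arrays. The part of signal level in the member values was not tested. The lowest members were Kpna3, an importin alpha (-3.26), Xpo1, the exportin for leucine-rich export signals (-3.10), Xpo7, another exportin (-2.97), and Kpna6, an importin alpha (-2.91). The scaffold nucleoporins Nup107 and Nup93, dim members with mean signals of 6.01 and 5.95 on the other 29 arrays, were at -0.01 and 0.54. Ipo9, with a mean signal of 7.60, was at -0.19, so the array did not lower all members alike. The comparisons below therefore leave out NL replicate 6 unless all 30 arrays are named.

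**Figure D1:**
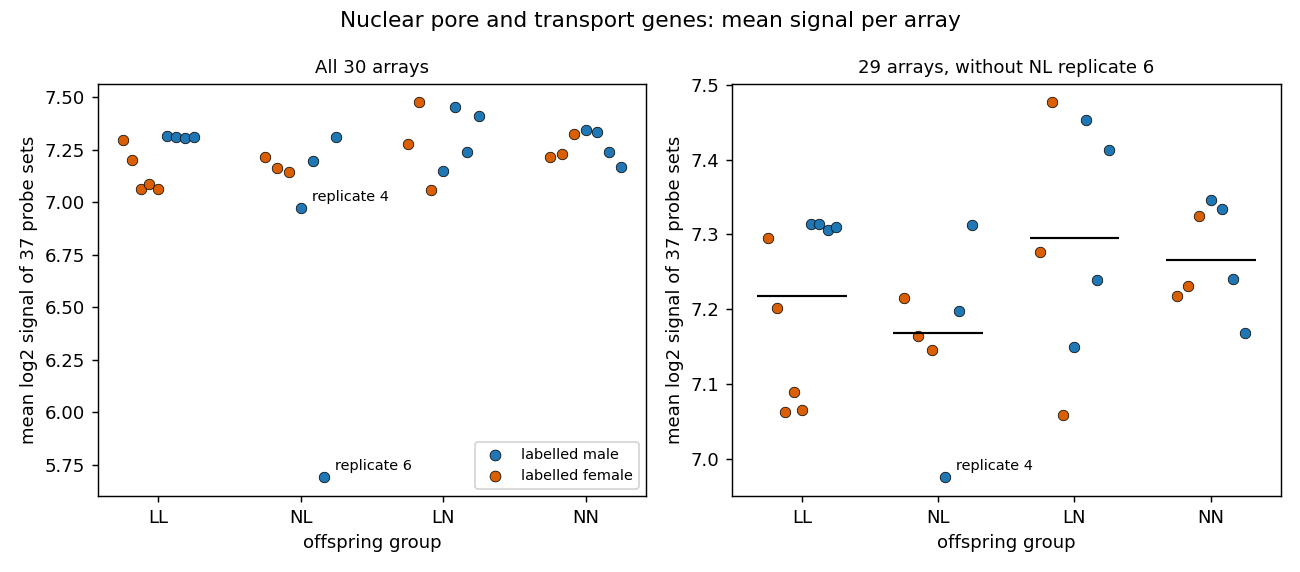
Mean log2 signal of the 37 measured members on each array (vertical axis) for LL, NL, LN and NN offspring, with all 30 arrays on the left and 29 on the right. Each point is an array coloured by labelled sex and the lines are group means. NL replicate 6 lies at 5.69 and NL replicate 4, at 6.97, is the lowest of the other 29.

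Without NL replicate 6 the groups overlapped in the mean signal of the members. The lowest, median and highest arrays were at 7.06, 7.30 and 7.31 log2 units in LL offspring, 6.97, 7.18 and 7.31 in NL offspring, 7.06, 7.28 and 7.48 in LN offspring, and 7.17, 7.24 and 7.35 in NN offspring. NL replicate 4 was lowest, and 18 of its 37 members were below every NN array. LL replicates 3, 4 and 5, all labelled female, came next with LN replicate 3, between 7.06 and 7.09, whereas each of the 4 LL males was at 7.31. The SD over all probe sets of an array was 2.15 on NL replicate 4, the lowest of the 29 arrays, 2.18 on each of those 3 LL arrays and 2.21 on LN replicate 3, and the highest was 2.30. Neutrophil markers averaged 5.25 on NL replicate 4 and 5.33 on NL replicate 7, and between 3.57 and 4.2 on the other 27 arrays. The part of these differences in the member signals was not tested.

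**Figure D2:**
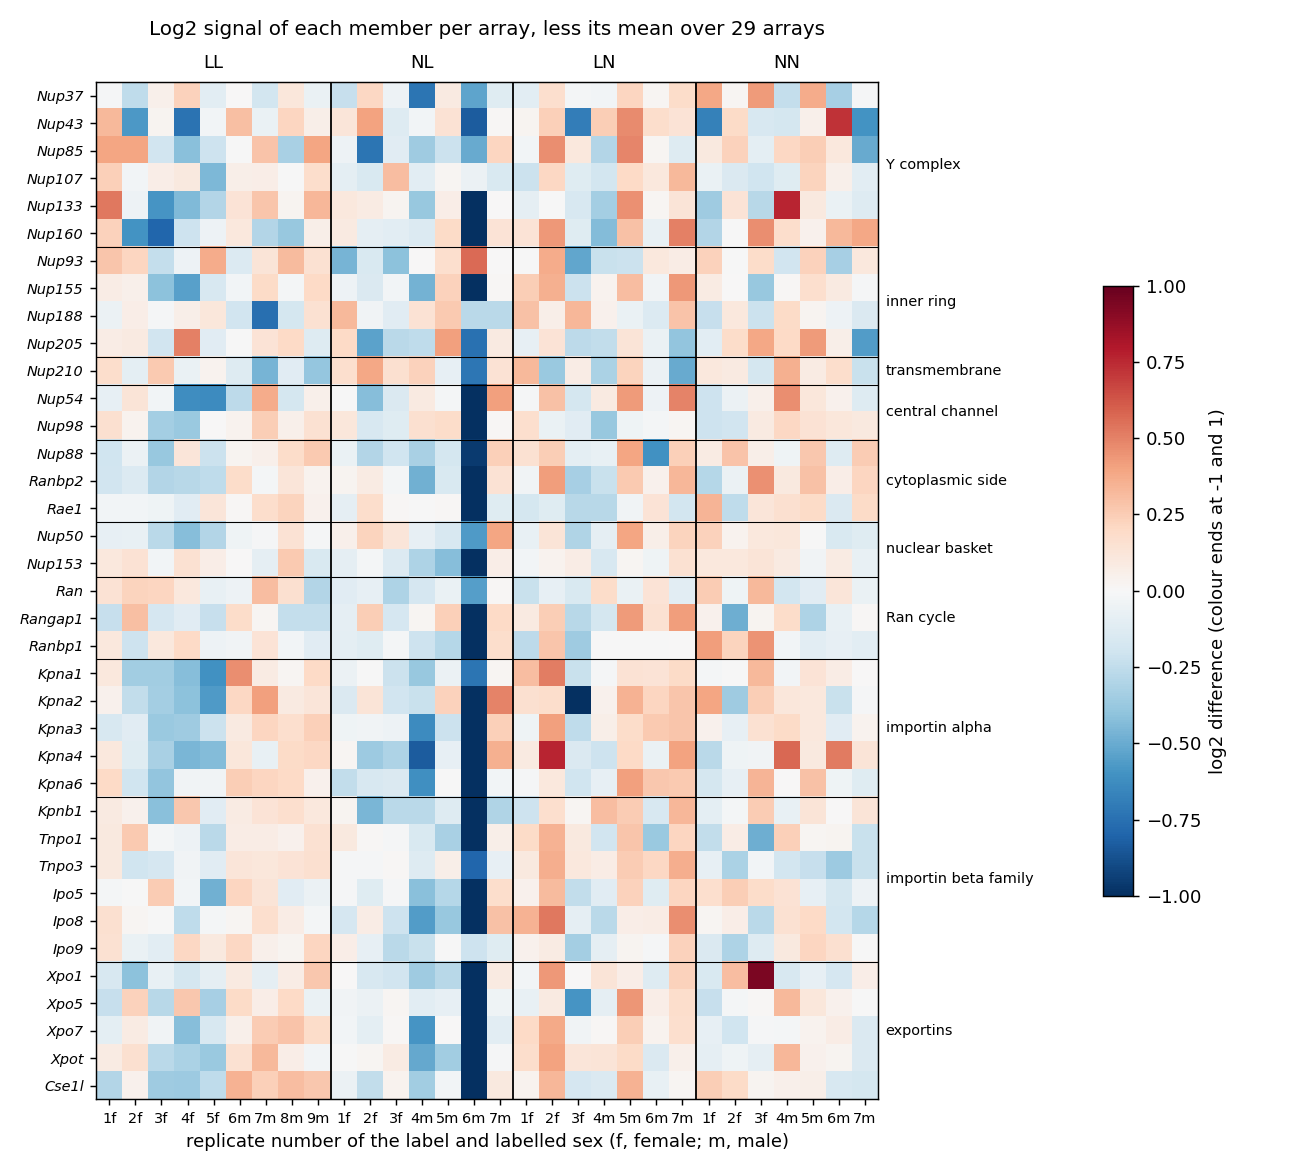
Log2 signal of each member (rows, grouped by role) on each of the 30 arrays (columns, LL, NL, LN and NN), less its mean over 29 arrays, with colours ending at -1 and 1. NL replicate 6 is blue for nearly all members, with Nup93 as the member above 0 against NN livers, and no other array shows a change of that size across members.

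NL offspring were set against NN offspring to read the low protein diet of the seminal plasma donor alone. Few single members differed, with 2 lower and 1 higher at an unadjusted p under 0.05 in limma's moderated test. The same held for 5.98% of all probe sets in the lower direction and 8.08% in the higher, and for 8.72% and 8.13% of those of like mean signal. No member passed after Benjamini-Hochberg adjustment, where 0.054% of all probe sets did, and in no member were the groups free of overlap (0.725% of all probe sets). Thus the share of single members lower in NL livers (5.41%) was near that of all probe sets. Counted without a test, the log2 fold change was negative for 28 of 37 members (75.7%), against 53.2% of probe sets of like mean signal and 47.1% of all probe sets. The median was -0.124 over the members, against -0.018 over probe sets of like mean signal and 0.014 over all probe sets.

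The lower members were Kpnb1 and Nup153. Kpnb1 had its lowest, median and highest signals at 9.02, 9.20 and 9.50 log2 units in NL livers, against 9.38, 9.47 and 9.73 in NN livers. Its log2 fold change was -0.28 (SE 0.11, adjusted p = 0.246 in limma), with an unadjusted exact permutation p of 0.0082 (two-sided). On 5 of 6 NL arrays it was below every NN array, and 1 NL array overlapped.

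Nup153 had its lowest, median and highest signals at 7.41, 7.72 and 7.91 in NL livers, against 7.76, 7.93 and 7.96 in NN livers. Its log2 fold change was -0.21 (SE 0.09, adjusted p = 0.271 in limma; unadjusted exact permutation p = 0.0128, two-sided). On 4 of 6 NL arrays it was below every NN array. Tnpo3 was the member on the higher side, by 0.18 (SE 0.08, adjusted p = 0.343 in limma), with 4 of 6 NL arrays above every NN array. Without NL replicate 4 as well, 25 of 37 members were negative with a median of -0.073, and Kpnb1 (-0.27) and Tnpo3 (0.20) were the members at an unadjusted p under 0.05, where 4.8% of all probe sets were lower and 6.12% higher, while Nup153 was at -0.18 with an unadjusted p of 0.0552 in limma. The count of 3 members was 6 without NN replicate 1, 5 without NN replicate 6 and 7 without NL replicate 7. Here and below, counts with a further array left out stand without the share of all probe sets unless it is printed. Such counts show how the number moved, not whether the members differ from other genes.

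**Figure D3:**
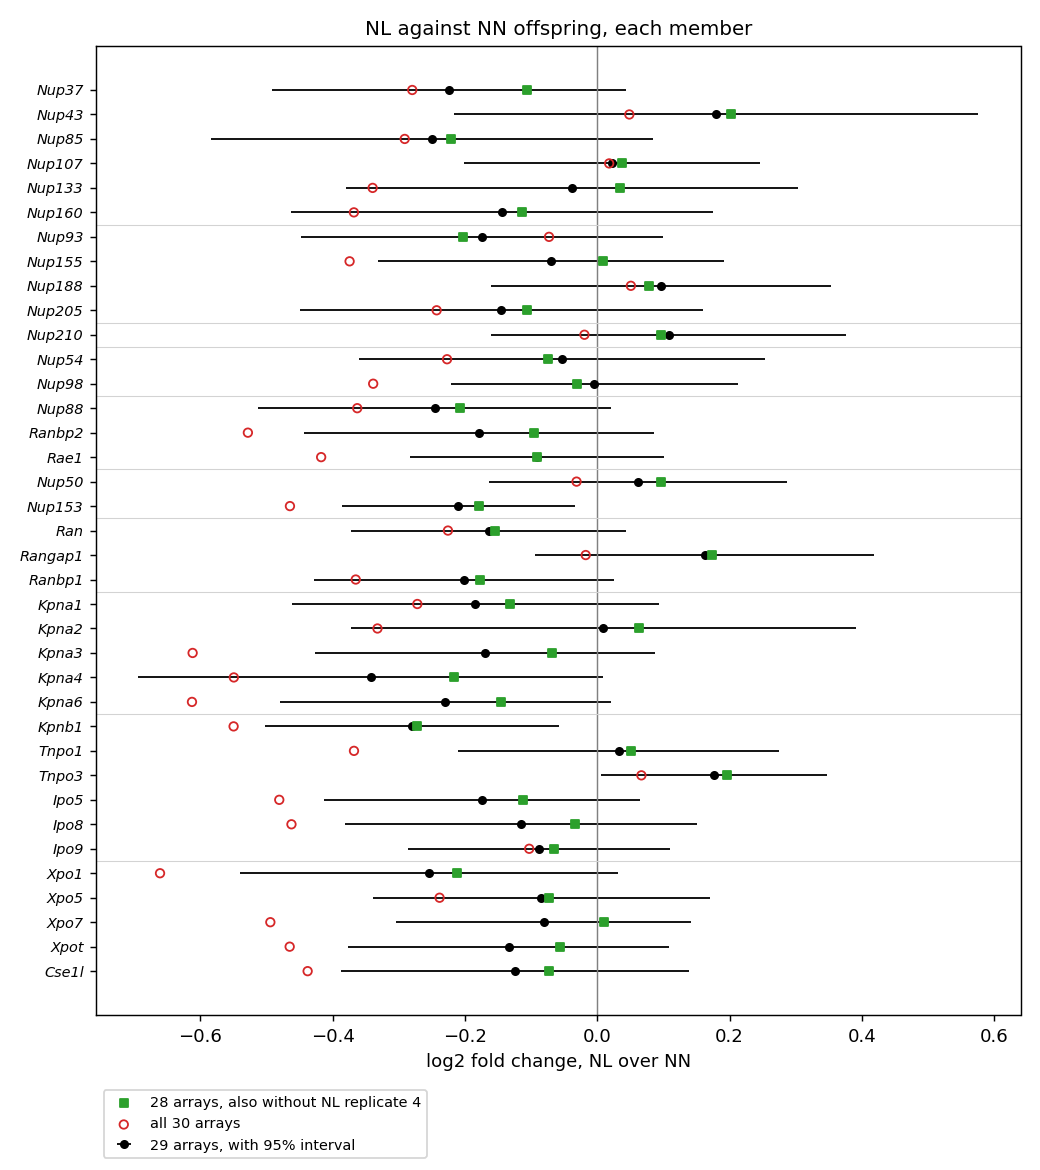
Log2 fold change of NL over NN livers for each of the 37 members, grouped by role from the Y complex at the top to the exportins at the bottom. Filled points with 95% intervals are from 29 arrays, squares leave out NL replicate 4 as well, and open circles use all 30 arrays. The median lies at -0.124 with 29 arrays, -0.073 with 28 and -0.339 with 30.

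By role, the log2 fold changes in this comparison are given by their sign, since few passed the test, and the classes were not tested against each other. All 5 exportins were negative (median -0.124, range -0.25 to -0.08). Xpo1, at -0.25, was lowest with NN replicate 3, on which it read 8.48 log2 units with the nearest NN array at 7.85. Without that array Xpo1 was at -0.12 and Xpot was the lowest exportin at -0.15. Xpo7 was low on NL replicate 4, at 7.07 with the nearest NL array at 7.55. Without NL replicate 4, Xpo7 was not negative. Of the 5 importin alpha genes, which bind the import signal of the cargo, 4 were negative (median -0.184), and Kpna4 was lowest at -0.34. Kpna4 and Xpot had their lowest NL signals on NL replicate 4, at 4.85 and 7.56, and were nearer to NN livers without it. The importin beta family ran between -0.28 for Kpnb1 and 0.18 for Tnpo3, with 4 of 6 negative. All 3 genes of the cytoplasmic side, Nup88, Ranbp2 and Rae1, were negative (median -0.179), as were 4 of 6 in the Y complex (median -0.091) and 3 of 4 in the inner ring (median -0.108). Without NL replicate 4, Nup133 of the Y complex and Nup155 of the inner ring were not negative. In the Ran cycle, Ran (-0.16) and its helper Ranbp1 (-0.20) were negative and Rangap1, the activator of Ran's GTP hydrolysis, was at 0.16. The anchor Nup210 was at 0.11. Of all these genes, those at an unadjusted p under 0.05 were Kpnb1, Nup153 and Tnpo3.

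With all 30 arrays the same comparison gave a larger difference for the members, 10 lower and 0 higher at an unadjusted p under 0.05, and a median of -0.339. Over all probe sets 9.27% were lower and 14.6% higher, and of those of like mean signal 16.3% and 12.8%, so that the members' share lower (27%) was above both. None passed the adjustment in limma, where 0.0135% of all probe sets did. The difference in counts between 30 and 29 arrays is set by NL replicate 6 alone, and without it the share of members lower was below that of probe sets of like mean signal.

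**Figure D4:**
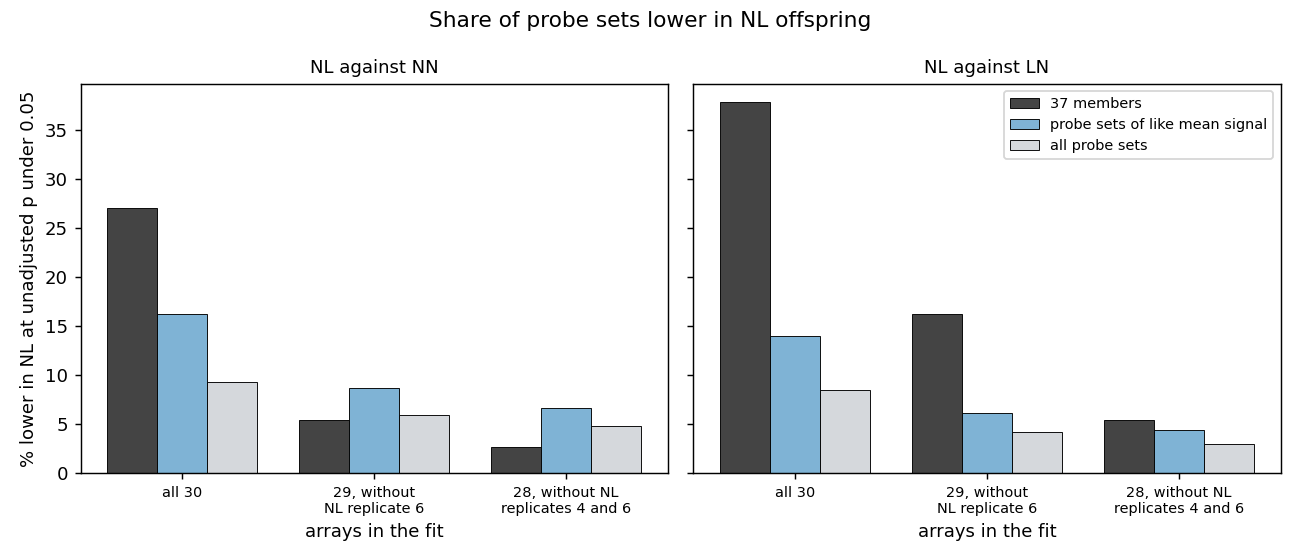
Percentage of the 37 members, of probe sets of like mean signal and of all probe sets that were lower in NL livers at an unadjusted p under 0.05 (bars from 0), against NN livers on the left and LN livers on the right, for 30, 29 and 28 arrays. Against NN livers the members' bar is 27% with all 30 arrays, 5.41% with 29 and 2.7% with 28, and against LN livers it is 37.8%, 16.2% and 5.41%.

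NL and LN offspring were compared because they swap which of the 2 ejaculate components came from a male on the low protein diet. At an unadjusted p under 0.05, 6 of 37 members were lower in NL livers and 0 higher, and without NL replicate 4 the count was 2. Over all probe sets 4.21% were lower and 2.68% higher, and of those of like mean signal 6.15% and 2.84%. Counted without a test, 30 of 37 members (81.1%) were negative, against 55.5% of probe sets of like mean signal and 50.3% of all probe sets, and the median was -0.134 over the members and -0.022 over probe sets of like mean signal. With all 30 arrays 14 members were lower, where 8.53% of all probe sets were lower and 6.09% higher, and with 28 arrays 2 were lower, where 2.95% and 1.81% were. No member passed the adjustment in limma, nor did any of all probe sets (6.89% had an unadjusted p under 0.05 in either direction). The 6 lower members were Kpnb1, Tnpo3 and Ipo8 of the importin beta family, the importin alpha gene Kpna6 and the exportins Xpo7 and Xpot, the exportin of tRNA. The roles were not tested against each other.

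Kpnb1 was at 9.24 ± 0.17 log2 units in NL livers and 9.58 ± 0.22 in LN livers (SD, n = 6 and 7), and the log2 fold change was -0.34 (SE 0.11, adjusted p = 0.637 in limma), and 4 of 6 NL arrays were below every LN array. Tnpo3 had its lowest, median and highest signals at 7.05, 7.17 and 7.23 in NL livers, against 7.25, 7.38 and 7.54 in LN livers. The groups did not overlap for Tnpo3, as for 0.144% of all probe sets, and the log2 fold change was -0.24 (SE 0.08, adjusted p = 0.637 in limma). The other 4 ran between -0.32 for Ipo8 and -0.26 for Xpot, and all overlapped. Nup210 was the nearest member on the higher side, at 0.26 (95% interval -0.01 to 0.52). The count of members at an unadjusted p under 0.05 rests on few arrays. It was 2 without NL replicate 4 (Kpnb1 and Tnpo3), 10 without NL replicate 7, 11 without LN replicate 3 and 10 without LN replicate 4. Shares of all probe sets are given for the fit without NL replicate 4 and not for the others.

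LN offspring were set against NN offspring to read the diet of the sperm donor alone, and here Tnpo3 stood out among the members. Its signals on the 7 LN arrays had a lowest, median and highest of 7.25, 7.38 and 7.54 log2 units, against 6.81, 6.96 and 7.15 on the 7 NN arrays. The groups did not overlap, which was so for 1 of 37 members and 0.311% of all probe sets. The log2 fold change was 0.41 (SE 0.08, 95% interval 0.25 to 0.58, adjusted p = 0.0415 in limma). The unadjusted exact permutation p was 0.00058 (two-sided), the smallest that 7 against 7 arrays allow. That value follows from the lack of overlap and adds nothing to it. Tnpo3 was 1 of 9 probe sets at an adjusted p under 0.05 in this comparison (0.0405% of those tested). The call was marginal: leaving out 1 array in turn, the adjusted p ran from 0.033 to 0.145 and was above 0.05 for 20 of 29 arrays, namely each NN array, LN replicates 2 to 7, LL replicates 1, 4, 6 and 7 and NL replicates 1, 2 and 3. With all 30 arrays the log2 fold change was the same and the adjusted p was 1.00.

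The rest of the members had no common direction in LN livers. The median was 0.008, against 0.023 over all probe sets, and 17 of 37 members (45.9%) were negative, against 44.5% of all probe sets. At an unadjusted p under 0.05, 1 was lower and 1 higher, where 4.69% and 6.87% of all probe sets were. The lower member was Rae1, an mRNA export factor that binds the nucleoporin Nup98, at 8.34 ± 0.15 in LN livers and 8.56 ± 0.21 in NN livers (SD, n = 7 each), and the log2 fold change was -0.22 (SE 0.09, adjusted p = 0.338 in limma) with overlapping groups. Without LN replicate 3 or without LN replicate 4 the count was 4, and without NN replicate 1 it was 1.

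**Figure D5:**
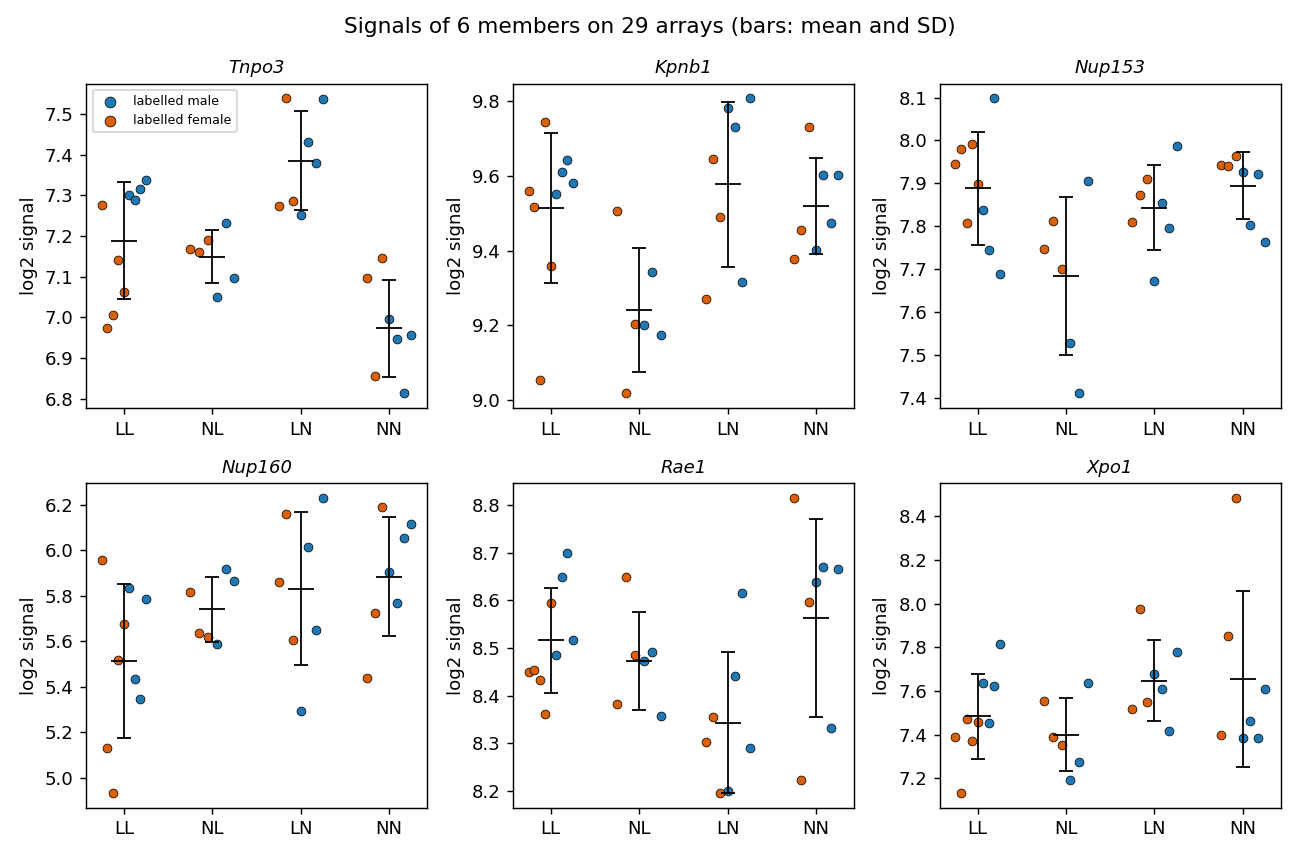
Log2 signals of Tnpo3, Kpnb1, Nup153, Nup160, Rae1 and Xpo1 on 29 arrays for LL, NL, LN and NN offspring, with points coloured by labelled sex and bars for the mean and SD of a group. All 7 LN points of Tnpo3 lie above all 7 NN points, and the other groups compared in the text overlap apart from Tnpo3 in NL and LN livers.

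LL offspring, in which both components came from males on the low protein diet, had few members past the threshold against NN offspring. At an unadjusted p under 0.05, 1 member was lower and 1 higher, where 2.83% and 5.6% of all probe sets were, and none passed the adjustment in limma, nor did any of all probe sets (8.43% at an unadjusted p under 0.05). Counted without a test, 27 of 37 members (73%) were negative, against 54.1% of probe sets of like mean signal and 46.6% of all probe sets, with a median of -0.037 over the members. The mean member signal was 7.14 in LL females and 7.31 in LL males, against 7.26 and 7.27 in NN females and males. On LL replicates 3, 4 and 5, labelled female, 15, 14 and 13 members were below every NN array. Leaving out 1 array in turn, the median ran from -0.068 to 0.003. No member was free of overlap (0.0315% of all probe sets). Nup160, a scaffold protein of the Y complex, had its lowest, median and highest signals at 4.93, 5.52 and 5.96 in LL livers, against 5.44, 5.91 and 6.19 in NN livers, and the log2 fold change was -0.37 (SE 0.14, adjusted p = 0.476 in limma). On 4 of 9 LL arrays it was below every NN array. Tnpo3 was 0.22 higher (SE 0.08, adjusted p = 0.433 in limma), with 5 of 9 LL arrays above every NN array.

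The mean signal of Tnpo3 was 7.19 ± 0.14 in LL, 7.15 ± 0.07 in NL, 7.39 ± 0.12 in LN and 6.97 ± 0.12 in NN livers (SD, n = 9, 6, 7 and 7). These comparisons share the 7 NN arrays. It had the smallest spread within groups of the 37 members, an SD of 0.12, where the median was 0.224 for members and 0.25 for all probe sets, and the highest was 0.37 for Nup43.

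The 4 groups also cross the diet of the seminal plasma donor with that of the sperm donor. For the low protein diet of the seminal plasma donor (LL and NL against LN and NN), 6 members were lower and 0 higher at an unadjusted p under 0.05, where 3.66% and 4.89% of all probe sets were, and 6.04% and 4.01% of those of like mean signal. The median was -0.082, against -0.021 over probe sets of like mean signal. The 6 were the importin alpha genes Kpna4 (-0.29), Kpna1 (-0.21) and Kpna3 (-0.18), with Kpnb1 (-0.17), Xpo1 (-0.21) and Nup160 (-0.23), each at an adjusted p between 0.552 and 0.577 in limma. On the other side the nearest member was Rae1 (0.04, unadjusted p = 0.52 in limma). Without NN replicate 3 Xpo1 was at -0.14 with an unadjusted p of 0.0736 in limma. Without NL replicate 4 as well as replicate 6 the count was 1, Kpnb1, and the count was 10 without NL replicate 7, 3 without LL replicate 2, 2 without LN replicate 2 and 3 without LN replicate 7. Shares of all probe sets are not given for these fits.

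For the low protein diet of the sperm donor (LL and LN against NL and NN), 4 members were higher and 1 lower, where 3.98% and 2.54% of all probe sets were. The higher members were Tnpo3 (0.23), Xpo7 (0.17), Kpnb1 (0.16) and Ipo8 (0.19), and the lower was Nup210 (-0.20), with adjusted p between 0.325 and 0.758 in limma. The count of 5 became 3 without NL replicate 4, NL replicate 2, LL replicate 7, NN replicate 4 or LN replicate 4, and 2 without LN replicate 2 or LN replicate 7. In the interaction of the 2 diets, 2 members were lower (Tnpo3 at -0.37 and Rangap1 at -0.37) and 3 higher (Ran at 0.29, Rae1 at 0.26 and Nup153 at 0.26), where 7.07% and 5.49% of all probe sets were. None passed the adjustment in limma, the smallest adjusted p being 0.150 for Tnpo3, while 0.113% of all probe sets did. The count of 5 was between 1 and 3 without any 1 of NN replicates 1, 3 and 5, LL replicates 1, 5, 7, 8 and 9, NL replicates 1, 3 and 4 and LN replicates 1, 3, 4, 5 and 7.

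Within each sex the NL and NN groups held 3 or 4 arrays. In males, Xpot and Kpna4 were lower in NL livers at an unadjusted p under 0.05 and none was higher, where 5.55% and 5.94% of all probe sets were lower and higher. Xpot read 7.56, 7.72 and 8.06 log2 units in NL males, against 8.40, 8.12, 8.10 and 7.93 in NN males, and Kpna4 read 4.85, 5.60 and 6.03, against 6.25, 5.78, 6.20 and 5.81. Both overlapped and had adjusted p of 0.360 and 0.376 in limma, and without NL replicate 4 or NN replicate 4 no member was at an unadjusted p under 0.05 in males, while 6 were without NL replicate 7 and 1 was without NN replicate 6. The groups of males did not overlap in 4 members (Kpnb1, Ipo9 and Xpo5 lower, Tnpo3 higher), which is 10.8% against 8.52% of all probe sets.

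In females, 4 members were lower and 0 higher, where 4.3% and 5.24% of all probe sets were, and 5.63% and 4.26% of those of like mean signal. Ranbp1, which assists GTP hydrolysis on Ran, read 7.42, 7.39 and 7.50 in NL females, against 7.93, 7.74 and 7.97 in NN females. It was lower by a log2 value of -0.44 (SE 0.15, adjusted p = 0.361 in limma). Ran itself read 8.90, 8.93 and 8.71, against 8.97 to 9.34, and Nup93, a scaffold of the inner ring, read 5.48, 5.80 and 5.54, against 5.95 to 6.18. Those 3 genes did not overlap between the groups, and their exact permutation p was 0.1, the smallest that 3 against 3 arrays allow. Xpo1 was the other (-0.48), with overlap and with NN replicate 3 at 8.48, and without that array it was at -0.19 with an unadjusted p of 0.279 in limma. In 9 members the groups of females did not overlap (24.3%, against 16.6% of all probe sets). Nup88, Nup93, Nup153, Ran, Ranbp1 and Ipo5 were lower in NL females, while Nup210, Tnpo3 and Xpot were higher. Xpot was thus on the other side from its value in males. The count of 4 lower members was 2 without NN replicate 1 or NN replicate 3. The effect in males less that in females had no member at an adjusted p under 0.05 in limma (smallest 0.97) and 3 of 37 at an unadjusted p under 0.05, against 4.98% of all probe sets.

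Few members separated males and females. Over the 4 diets 2 members were higher in males and 0 lower, where 8.58% and 8.67% of all probe sets were, and no member passed the adjustment in limma, whereas 5.65% of all probe sets did. Nup54, an FG-repeat nucleoporin of the central channel, was at 7.66 ± 0.25 in males and 7.40 ± 0.27 in females, and Kpna2, an importin alpha, at 8.48 ± 0.20 in males and 8.18 ± 0.39 in females (SD, n = 15 and 14). The log2 differences over the diets were 0.25 and 0.28, with adjusted p of 0.154 and 0.164 in limma. Kpna2 read 7.24 on LN replicate 3, labelled female, with the nearest LN array at 8.38. Leaving out 1 array in turn, its difference ran from 0.18, without that array, to 0.33. The count was 7 without LN replicate 2, 6 without NL replicate 4, 4 without any 1 of NN replicates 3 and 7, LL replicates 1 and 2, NL replicates 1 and 7 and LN replicates 1 and 4, and 1 without NN replicate 2 or LN replicate 3.

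Other genes of the same machinery gave a mixed picture in NL against NN livers, where 5.98% of all probe sets were lower and 8.08% higher at an unadjusted p under 0.05. They were taken from lists of known roles, also drawn up with earlier results of these data known. Of 26 further pore and transport genes 4 were lower and 1 higher at an unadjusted p under 0.05 (median -0.095), led by Senp2, a SUMO protease found at the pore (-0.41, adjusted p = 0.111 in limma). Of 21 mRNA export genes 4 were lower and 0 higher (median -0.014), with the THO complex genes Thoc2 at -0.70 and Thoc1 at -0.54 (adjusted p of 0.073 and 0.067 in limma). Of 19 genes of the lamina and envelope 3 were lower and 1 higher, among them Syne1 (-0.41) and Lmnb2 (0.39). Of 22 proliferation genes 0 were lower and 8 higher (median 0.247), among them Cenpf (0.52). Some of these counts moved with 1 array: that of the further pore and transport genes was 3 without NN replicate 1 or NL replicate 4, that of mRNA export was 2 without NL replicate 4, and that of proliferation was 4 without NN replicate 3 or NL replicate 7. Leaving out 1 array in turn gave 3 to 6, 2 to 5 and 4 to 10 genes in these lists, and 4 to 5 for the lamina and envelope. The proliferation count was also 5 with each array centred on its median and 3 without dim probe sets, and the lamina and envelope count was 7 with all 30 arrays. Kupffer cell markers had a median of 0.324 with 2 of 7 higher, neutrophil markers 0.385 with 0 of 5, and hepatocyte markers 0.08 with 2 of 16, and their part in the member values was not tested. Fewer cells of a type and less RNA per cell cannot be told apart in whole liver.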

How the data were processed

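Liver RNA of 30 offspring was measured on 1-colour Clariom S arrays, 1 per animal, after WT PLUS labelling. The deposited values are log2 signals per probe set on a scale shared by the arrays, made by the authors in Partek Genomics Suite, and the background correction, summarisation and normalization behind them are steps not given in the sources used here. They cover 29129 probe sets, of which 22206 were tested unchanged after removal of 6923 control probe sets, and 19572 of these had 1 gene symbol. Contrasts were fitted in limma 3.58.1 (R 4.3.3) to 29 arrays without NL replicate 6, in 4 groups of diet or 8 of diet and labelled sex, where the study's methods name one-way ANOVA. Two-sided moderated tests were adjusted by Benjamini-Hochberg over all tested probe sets. For single members an exact permutation test (two-sided) was run as well, not adjusted for the number of genes. The fit was tested on simulated data.

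The members and lists were chosen with earlier results of these data known. Named members are up to 6 higher and 6 lower per comparison with the smallest unadjusted p under 0.05, or the nearest where none passed, and any at an adjusted p under 0.05. From each other list up to 3 genes with the smallest p in NL against NN were eligible. Promoter sequences are from RefSeq (GRCm38.p6), matched by symbol, and figures were drawn with matplotlib 3.10.9. Alternatives were all 30 arrays, 28 arrays, quantile normalization, median centring, a filter on dim probe sets, sex as a covariate, a replicate block, fits of only the groups compared, ANOVA, array weights and each array left out. Precision is limited by the number of arrays.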

Additional observations from a re-analysis of the deposited data

Results flagged for a closer look

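Within groups of 4 to 10 arrays, the highest or lowest array was checked against the gap to its neighbour with Dixon's test in 89 groups of values, of which chance marks about 1 in 20. The mean signal of the members was 5.69 log2 units on NL replicate 6, and the nearest NL array was at 6.97. Xpo7 was low on NL replicate 4, at 7.07 with the nearest NL array at 7.55. Kpna2 was low on LN replicate 3, at 7.24 with the nearest at 8.38. Ipo8 was low on LL replicate 4, at 7.60 with the nearest at 7.83. Xpo1 was high on NN replicate 3, at 8.48 with the nearest at 7.85, and Xpot was high on NN replicate 4, at 8.40 with the nearest at 8.12.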

How the results depend on the processing

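Of the counts and medians of members per comparison, 265 of 309 values under the alternatives other than leaving out 1 array stayed close to the value reported, meaning a count within 1.5 times of it or a median within 0.118, the SD of the member mean within groups. That margin is wide beside the medians, so a median could change sign and count as close, as the interaction did (0.028 to -0.044). The values include counts at an adjusted p under 0.05 in limma, which stayed at 0 except for LN against NN. The share is thus no measure of how stable the medians were. With all 30 arrays, the members at an unadjusted p under 0.05 numbered 0 for LL against NN, 10 for NL against NN, 1 for LN against NN, 14 for NL against LN, 3 for the sperm diet, 2 for the interaction, 16 in NL males, 1 in NL females and 0 for males against females. The medians were -0.339 for NL against NN, -0.317 for NL against LN, -0.204 for the seminal plasma diet, 0.309 for the interaction and -0.458 in NL males, and Rae1 turned to -0.122 for the seminal plasma diet. Without NL replicates 4 and 6 the counts were 2 for NL against LN, 1 for the seminal plasma diet, 3 for the sperm diet, 2 for the interaction, 0 in NL males and 6 for males against females.

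Tnpo3 in LN against NN livers, the 1 member at an adjusted p under 0.05, was not called in limma in 5 alternatives, which left 0 members: all 30 arrays (adjusted p = 1.00), without LL replicate 1 (0.0534, with 3 members at an unadjusted p under 0.05 for the interaction and 4 for males against females), median centring (log2 fold change 0.37, 0.108), the replicate block (0.109) and only the groups compared (0.242). Median centring gave 9 members for NL against NN, 6 in NL males and 4 for males against females. Array medians averaged 5.53 in NL and 5.48 in NN livers, so centring moved every probe set. The share of all probe sets is not given for centring or for the alternatives that follow. Their counts show how the number moved, not whether the members differ from other genes. Quantile normalization gave 3 for the seminal plasma diet and 5 for males against females, and array weights 3, 5 and, in NL males, 4. The filter on dim probe sets gave 4 for males against females. ANOVA gave 5 in NL males and 5 for males against females. Fits of only the groups compared gave 0 in NL males and 2 in NL females.

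Under the replicate block the counts were 2 for the sperm diet, 2 for the interaction, 1 in NL males and 1 for males against females, and Nup210 in males against females turned to 0.059. The replicate numbers were not taken to pair the arrays. Deviations from the group means correlated above 0.1 in 27 of 39 same-number pairs of arrays and as low as -0.312, with a median of 0.165 against -0.038 for other numbers. Same-number pairs were of 1 labelled sex in 33 of 39, and other-number pairs of 1 sex had a median of 0.187. On 6 of 27 arrays the highest mean correlation was with the array's own number. Leaving out 1 array in turn gave 2 to 7 members for NL against NN, 1 to 4 for LN against NN (0 to 1 at an adjusted p under 0.05), 2 to 11 for NL against LN, 1 to 10 for the seminal plasma diet, 2 to 6 for the sperm diet, 1 to 6 for the interaction, 0 to 6 in NL males, 2 to 6 in NL females and 1 to 7 for males against females. The cause was not tested for any of these.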
